A study of Homo sapiens with 18 samples.

Results

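Osteosarcoma (OS) cells that had been bioprinted and kept for 14 days in culture (group DP-3) were compared, gene by gene, with tumors grown from the same cell line in nude mice and taken fresh (group FIT). All libraries that the labels place in these 2 groups at day 14 were used, 3 in each, which makes 6 of the 18 libraries of the series. The series profiled OS cells, labelled Soas-2 and wild type, by RNA-seq of polyadenylated RNA under several culture methods in vitro and as a tumor. D-2 denotes flat culture, D-3 unprinted culture in Matrigel, a basement membrane extract, DP-3 the printed tissue at day 1 and at day 14, IT pieces of tumor kept in culture on Matrigel and FIT the fresh tumor. In the text DP-3 always means day 14, and each group has 3 libraries.

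For DP-3, the cells were mixed into a bioink of gelatin methacrylate and alginate, printed as a grid and cultured in vitro. For FIT, the line was injected with Matrigel under the skin of the axilla of 4-week-old female BALB/c nude mice, which lack a thymus and hence mature T cells, and the tumors were removed after 2 weeks. A FIT sample therefore also holds host mouse cells, while the deposited values are for human genes. The treatment of mouse reads is not given, so it cannot be told how many of them were counted on human genes in FIT. No drug or genetic change separates the groups: they differ in the host, the matrix, the blood supply and the handling of the sample together, and the share of each in a difference cannot be told apart. Only 1 cell line was used, and nothing in the labels says whether the 3 samples of a group were separate cultures or animals, so that p-values measure the spread between these samples.

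Cells in a solid matrix receive signals that cells on plastic do not. Bone morphogenetic proteins (BMPs) act through receptors and SMAD proteins to switch on the ID genes, which keep cells from differentiating; the Wnt pathway, which DKK1 blocks outside the cell, directs bone formation; and YAP and TAZ, together with TEAD factors, carry tension and cell shape into transcription. In a tumor, cells also meet cytokines of the host, and many cells respond to cytokines by displaying more MHC class I molecules. Whether cytokines of the mouse host acted on the human cells was not tested. Tumor cells can also remodel the collagen around them with matrix metalloproteinases (MMPs). Protein folding stress, oxidative stress and iron supply are each followed by defined gene programs: the heat shock proteins, the targets of NRF2 and the ferritin and transferrin receptor genes.

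The labelled line was first checked against bone genes. Saos-2 is known for high alkaline phosphatase activity. The alkaline phosphatase gene ALPL reached at most 0.148 FPKM (fragments per kilobase of transcript, scaled to the mapped reads of the library) in any of the 18 libraries. SP7, an osteoblast transcription factor, was listed at 0 in all 3 DP-3 libraries and reached 0.0677 FPKM in FIT, and the bone sialoprotein gene IBSP was listed at 0 in all 6 libraries. SPARC, which codes for the bone matrix protein osteonectin, was at 138 to 166 FPKM in DP-3 and 121 to 176 FPKM in FIT, and RUNX2, the early osteoblast factor, at 0.732 to 1.54 and 1.17 to 2.15 FPKM. These genes were chosen after their values were seen, and the level of ALPL goes against the label, so the samples are called the libraries labelled Soas-2 and no other name is given to them.

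The 3 DP-3 libraries held 72514817, 77174403 and 60000387 estimated counts and the FIT libraries 64271701, 65871171 and 23721666. FIT replicate 3 thus had the lowest depth of the 18 libraries. A gene at 12 counts or fewer, taken as about 3 read pairs, was treated as at the detection floor. That floor was a CPM (counts scaled to the library total) of 0.155 to 0.2 in DP-3. In FIT it was 0.187 and 0.182 in replicates 1 and 2 and 0.506 in replicate 3. Genes of the mitochondrial genome took 4.34%, 4.34% and 9.22% of the counts of DP-3 and 5.13%, 5.04% and 6.21% of those of FIT, highest in DP-3 replicate 3. All values below are per library in replicate order, fold changes are log2 of DP-3 over FIT ± the standard error, and adjusted p is from the quasi-likelihood test of edgeR, adjusted after Benjamini and Hochberg over all genes tested. A differentially expressed gene (DEG) had an adjusted p below 0.05 and at least a 2-fold difference.

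There were 965 DEGs between DP-3 and FIT among the 20039 tested genes (4.82%). In the printed tissue 332 of them were upregulated (1.66%) and 633 downregulated (3.16%). Among the 13020 protein-coding genes tested, 293 rose and 391 fell, so that the excess of lower genes was larger among noncoding ones. The median log2 fold change over all tested genes was -0.06. The values of the 2 groups did not overlap for 6842 genes (34.1%), all 3 DP-3 libraries being higher for 2509 (12.5%) and lower for 4333 (21.6%). In FIT, 22 of the upregulated DEGs were at the detection floor in every library, and in DP-3 90 of the downregulated ones were. The number of DEGs turned on single libraries: without FIT replicate 3 it was 1438, without DP-3 replicate 1 it was 90, and without DP-3 replicate 2 or 3 or FIT replicate 1 or 2 it was 242, 233, 117 and 250. Of the 803 DEGs that could be tested in all 6 of these fits, all 803 kept their direction and 666 kept a 2-fold difference in each, while 64 DEGs were called in all 6 and 160 in none.

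**Figure D1:**
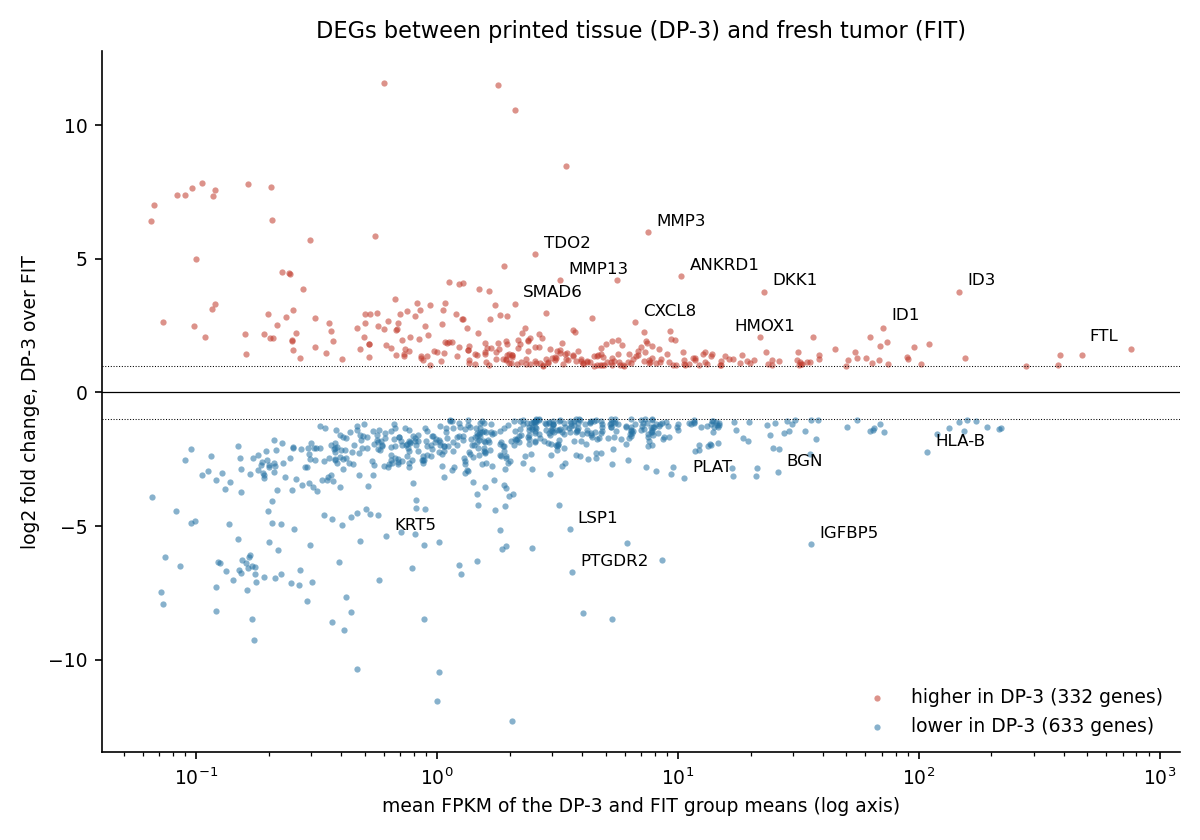
Log2 fold change of DP-3 over FIT (y axis) against the mean FPKM of the group means on a log axis (x axis), 1 point for each of the 965 DEGs, with dotted lines at a 2-fold difference in either direction. The points farthest from 0 lie at low FPKM, among the genes named in the plot MMP3 is the highest and PTGDR2 the lowest, and lower points outnumber higher ones, 633 to 332.

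Among the 10 named increases were matrix proteases, a tension-responsive gene and inhibitors of differentiation and of Wnt. MMP3, which codes for stromelysin-1, a protease of proteoglycans and other matrix proteins (ENSG00000149968, GRCh38 chr11:102835801-102843609, minus strand), was at 15.7, 12.8 and 16 FPKM in DP-3 and 0.189, 0.252 and 0.32 FPKM in FIT. The lowest DP-3 value lay far above the highest FIT value, and the log2 fold change was 6.0 ± 0.29, adjusted p = 0.000687. MMP13, the collagenase-3 gene, was at 7.06, 3.94 and 7.37 FPKM in DP-3 and 0.44, 0.306 and 0.334 FPKM in FIT (4.21 ± 0.34, adjusted p = 0.00264). Other genes of this kind were ESM1, which codes for a proteoglycan of activated endothelium and of tumor cells (4.23 ± 0.78, adjusted p = 0.0243), PLEKHA7, a junction protein (2.78 ± 0.26, adjusted p = 0.00455), CXCL8, the neutrophil chemokine (2.64 ± 0.52, adjusted p = 0.0284), and MARCHF4, a ubiquitin ligase of membranes (2.33 ± 0.52, adjusted p = 0.0376). The calls of MMP3, MMP13 and PLEKHA7 held in all 6 fits that left out a library, that of ESM1 in 2, that of CXCL8 in 2 and that of MARCHF4 in 1, the fit without FIT replicate 3.

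Among the 10 named decreases were a prostaglandin receptor, a growth factor binding protein and a plasminogen activator. PTGDR2, a receptor for prostaglandin D2, was at 0.0302, 0.0565 and 0.0918 FPKM in DP-3 and 6.06, 4.06 and 11.4 FPKM in FIT (-6.72 ± 0.57, adjusted p = 0.00309). IGFBP5, which binds insulin-like growth factors in bone matrix, was at 1.11, 1.77 and 0.909 FPKM in DP-3 and 111, 73.5 and 25.8 FPKM in FIT. All FIT values of IGFBP5 lay far above those of DP-3, FIT replicate 3 being the lowest of its group, and the log2 fold change was -5.67 ± 0.57, adjusted p = 0.00596. LSP1, an actin-binding protein of leukocytes, was at 0.126, 0.141 and 0.262 FPKM in DP-3 and 5.81, 6.97 and 7.96 FPKM in FIT (-5.12 ± 0.36, adjusted p = 0.00188). PLAT, the tissue plasminogen activator that turns plasminogen into plasmin, was at 1.87, 2.07 and 1.8 FPKM in DP-3 and 17, 16.2 and 24.7 FPKM in FIT, a tight group on either side (-3.2 ± 0.19, adjusted p = 0.00102). PDGFRL, a receptor-like protein related to the platelet-derived growth factor receptors (-3.12 ± 0.28, adjusted p = 0.00379), CCBE1, a secreted factor of lymphatic growth (-3.07 ± 0.35, adjusted p = 0.00791), FOXS1, a forkhead transcription factor (-4.22 ± 0.60, adjusted p = 0.0138), and ACTG2, smooth muscle gamma actin (-3.12 ± 0.64, adjusted p = 0.0309), also fell. ACTG2 was at 2.54, 3.44 and 6.06 FPKM in DP-3 and 45.3, 58.7 and 10.3 FPKM in FIT, so that FIT replicate 3 lay nearer to DP-3 than to the rest of FIT, and its call was lost in every fit but the one without FIT replicate 3. MIR22, a microRNA gene, was at 31.3, 19.6 and 0.215 FPKM in FIT and at the floor in DP-3, with a mean of 14.2 FPKM in D-3. RPL15P5, a processed pseudogene of a ribosomal protein, was at 2.30, 1.84 and 31.9 FPKM in FIT and 0.115, 0.407 and 0.109 FPKM in DP-3. The FIT libraries were far apart for both genes. For RPL15P5 all 3 lay above DP-3. For MIR22 FIT replicate 3 was under the detection floor as well, so that only FIT replicates 1 and 2 could be placed above DP-3. Without FIT replicate 3 the log2 fold change of RPL15P5 was -3.15. Each of the 2 calls was lost in 5 of the 6 fits without 1 library.

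**Figure D2:**
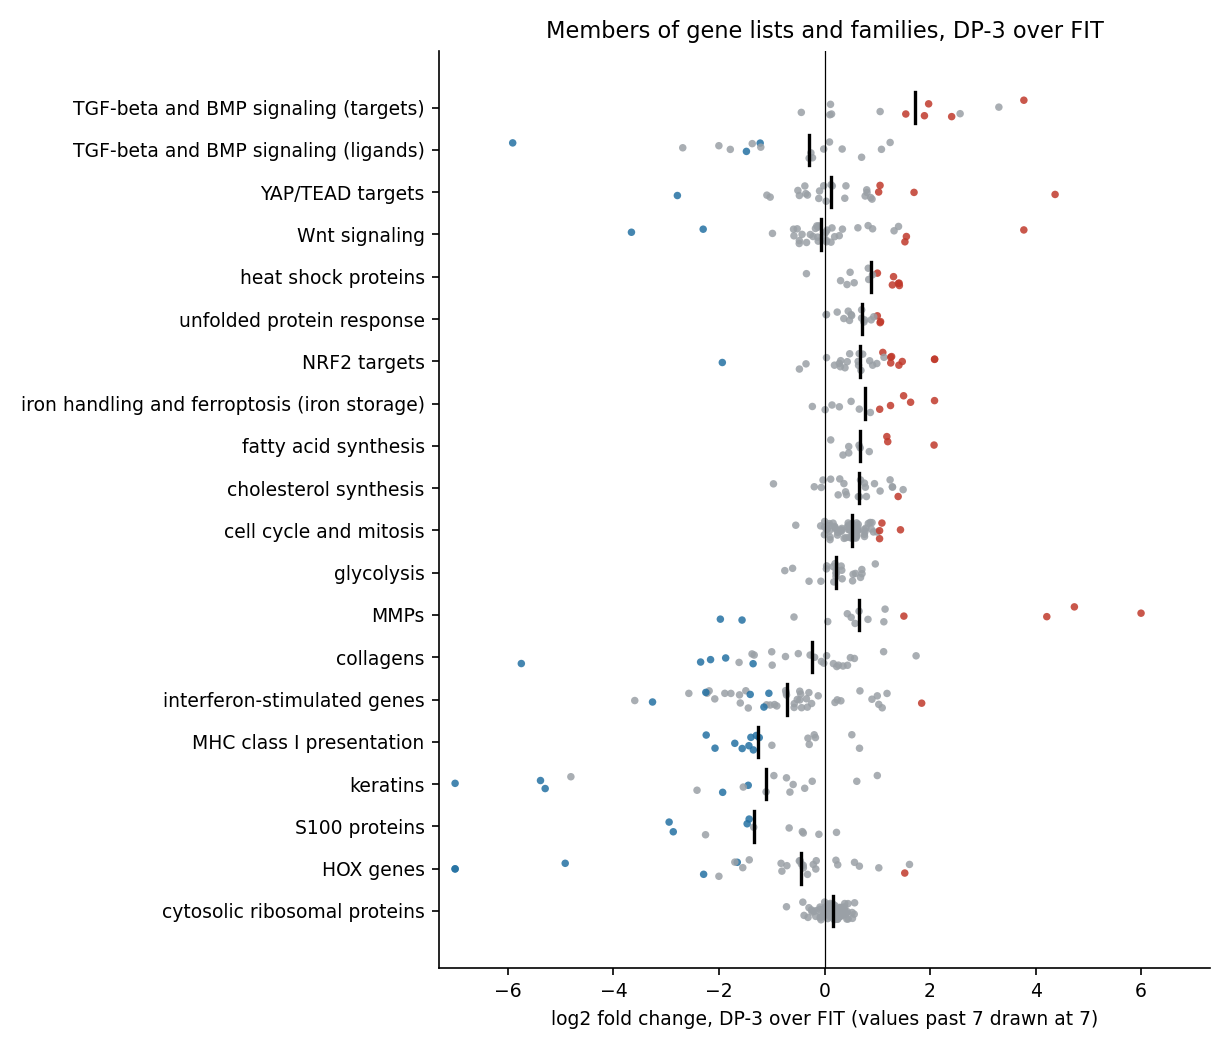
Log2 fold change of DP-3 over FIT (x axis, points beyond 7 drawn at 7) for the tested members of 20 gene lists and families (y axis), red points being upregulated DEGs, blue ones downregulated DEGs and grey ones neither, with a black bar at the median. BMP targets and heat shock proteins lie mostly to the right, MHC class I genes, keratins and S100 genes to the left, and ribosomal proteins are grouped near 0.

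BMP and TGF-beta signaling differed between the groups in its target genes and SMADs, and its receptors held no DEG. Of 70 listed genes 56 were tested, of which 7 rose and 4 fell. Among the 12 tested targets 5 rose and none fell (1.66% of all genes rose), with a median of 1.72. ID3, an inhibitor of helix-loop-helix transcription factors (ENSG00000117318, chr1:23557926-23559501, minus strand), was at 334, 248 and 234 FPKM in DP-3 and 17.5, 25.3 and 21.5 FPKM in FIT. The lowest DP-3 library lay far above the highest FIT library, and the log2 fold change was 3.78 ± 0.23, adjusted p = 0.00102. ID1, its close relative, was at 133, 126 and 93.7 FPKM in DP-3 and 19.8, 29.6 and 22.1 FPKM in FIT (2.41 ± 0.22, adjusted p = 0.00379), whereas ID2 had a log2 fold change of 0.11 ± 0.60, adjusted p = 0.924. TGFBI, a matrix protein induced by TGF-beta, had 1.54 ± 0.24, adjusted p = 0.0171, and DLX2, a homeobox factor, 1.97 ± 0.47, adjusted p = 0.0441. The count of targets that rose was 3 to 6 over the fits without 1 library, 6 of them without FIT replicate 3.

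The SMAD genes moved in opposite directions. SMAD6, an inhibitory SMAD that is itself switched on by BMP, was at 4.72, 3.52 and 3.15 FPKM in DP-3 and 0.678, 0.258 and 0.298 FPKM in FIT (3.33 ± 0.37, adjusted p = 0.00791). SMAD9, a BMP-regulated SMAD, was at 1.14, 1.06 and 1.46 FPKM in DP-3 and 0.189, 0.269 and 0.494 FPKM in FIT (2.08 ± 0.41, adjusted p = 0.0294). SMAD1, a BMP-regulated SMAD as well, was at 2.54, 2.84 and 3.83 FPKM in DP-3 and 14.6, 11.1 and 10.5 FPKM in FIT, with every FIT library above every DP-3 library (-1.84 ± 0.22, adjusted p = 0.00893). SMAD6 and SMAD1 were called in all 6 fits without 1 library, and SMAD9 in 1, the fit without FIT replicate 3. Among 17 tested ligands 3 fell and none rose (3.16% of all genes fell). BMP1, a procollagen protease rather than a signal, was at 7.24, 6.91 and 6.53 FPKM in DP-3 and 18.7, 20.2 and 24 FPKM in FIT (-1.48 ± 0.15, adjusted p = 0.00559). BMP2, a bone-inducing ligand, was at 1.99, 1.61 and 1.54 FPKM in DP-3 and 5.15, 4.44 and 3.48 FPKM in FIT (-1.22 ± 0.23, adjusted p = 0.0258). LEFTY1, a secreted antagonist of NODAL, was at the floor in DP-3 and at least 5.74-fold lower there than in FIT. Without FIT replicate 3 the count of ligands that fell was 3, and without any other library it was 1, BMP1. The call of BMP2 was lost in those 5 fits, and that of LEFTY1 in each of the 3 fits in which it was tested. BMP4 was at 1.56, 1.7 and 2.27 FPKM in DP-3 and 5.06, 3.54 and 12.6 FPKM in FIT, with the FIT libraries spread widely, and missed the threshold (-1.79 ± 0.46, adjusted p = 0.0512). Neither the 12 receptors nor the 7 secreted inhibitors tested held a DEG, and without FIT replicate 3 there was 1 among the inhibitors.

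**Figure D3:**
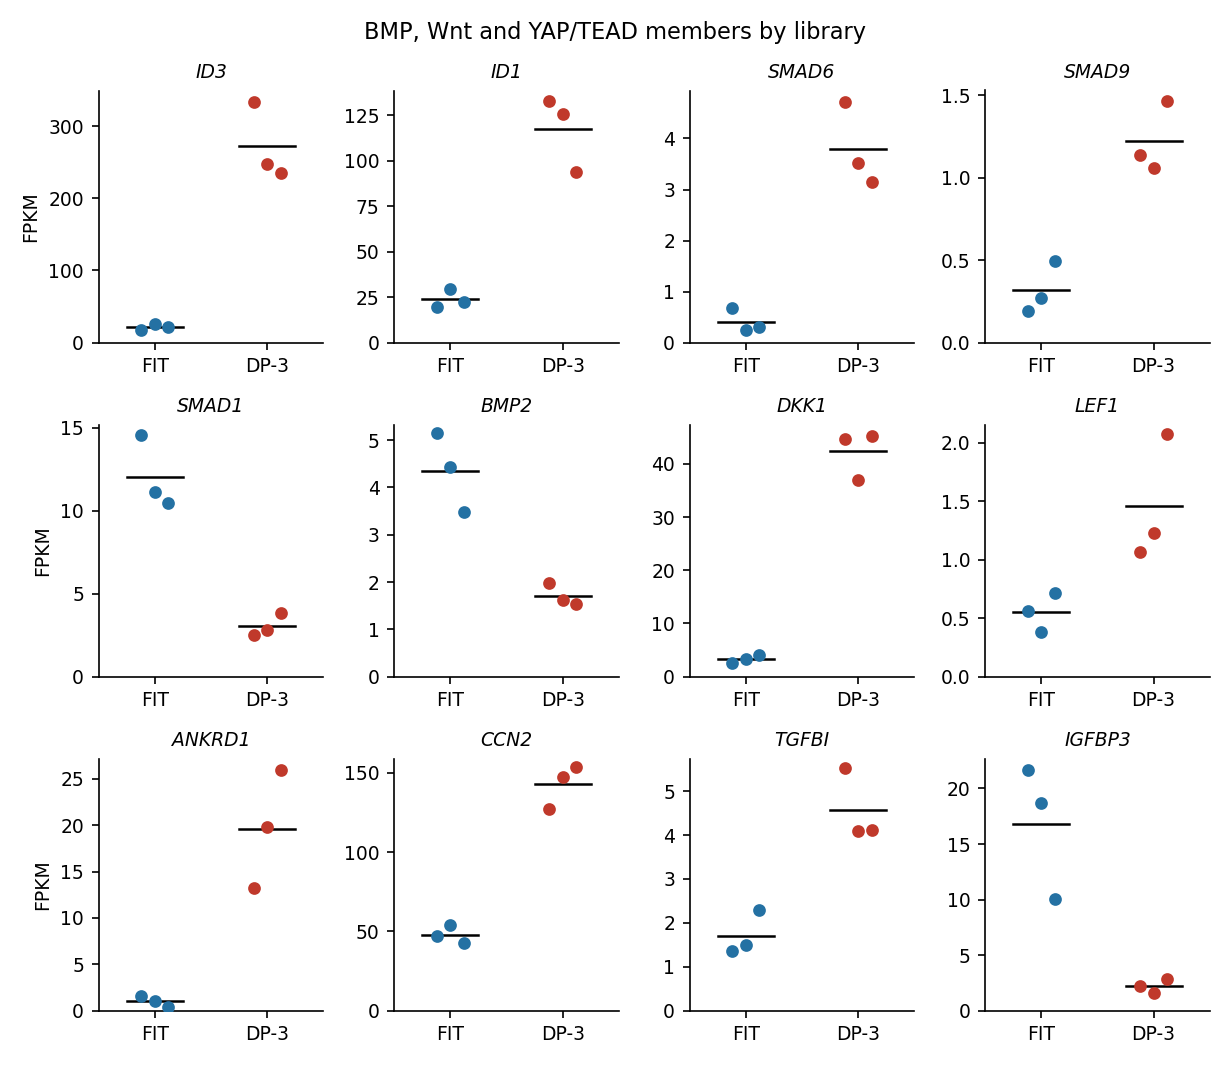
FPKM (y axes, from 0) of 12 genes of the BMP, Wnt, YAP/TEAD and insulin-like growth factor lists in the 6 libraries, with 1 point for each library and a line at the mean of each group. ID3, ID1, SMAD6, DKK1 and ANKRD1 are higher in all 3 DP-3 libraries, and SMAD1, BMP2 and IGFBP3 are higher in all 3 FIT libraries.

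Most tested members of the Wnt list were not called. Of 65 listed genes 36 were tested, with a median of -0.06. Among them 3 rose (8.33%, beside 1.66% of all genes) and 2 fell (5.56%, beside 3.16% of all genes). Without DP-3 replicate 1 or 2 or FIT replicate 1 or 2 DKK1 alone was called. DKK1, the secreted Wnt inhibitor that is raised in many bone tumors (ENSG00000107984, chr10:52314281-52317657, plus strand), was at 44.8, 36.9 and 45.3 FPKM in DP-3 and 2.65, 3.34 and 4.14 FPKM in FIT, which left a wide gap between the groups (3.78 ± 0.22, adjusted p = 0.00102). WNT10B, a ligand that favours bone formation, was at 3.28, 3.54 and 3.59 FPKM in DP-3 and 0.817, 1.02 and 2.06 FPKM in FIT (1.55 ± 0.37, adjusted p = 0.0448), and LEF1, a nuclear partner of beta-catenin, at 1.07, 1.23 and 2.07 FPKM in DP-3 and 0.558, 0.379 and 0.712 FPKM in FIT (1.52 ± 0.38, adjusted p = 0.0482). WNT7A (-3.66 ± 0.75, adjusted p = 0.0313) and the DKK family member DKK3 (-2.3 ± 0.48, adjusted p = 0.033) fell. AXIN2, a target often used as a readout of the pathway, had a log2 fold change of -0.22 ± 0.20, adjusted p = 0.53.

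Of the 25 tested targets of YAP and TEAD, 4 rose and 1 fell, beside 1.66% and 3.16% of all genes, with a median of 0.13. ANKRD1, a nuclear ankyrin-repeat protein of muscle and of stretched cells (ENSG00000148677, chr10:90912096-90921087, minus strand), was at 13.2, 19.8 and 25.9 FPKM in DP-3 and 1.57, 1.01 and 0.444 FPKM in FIT. Every DP-3 value lay far above the highest FIT value (4.37 ± 0.46, adjusted p = 0.00695). CCN2, the connective tissue growth factor, was at 127, 147 and 154 FPKM in DP-3 and 47.1, 54 and 42.9 FPKM in FIT (1.7 ± 0.17, adjusted p = 0.00623), and CCN1, a related matrix protein, at 94.9, 85.5 and 112 FPKM in DP-3 and 41.5, 55.3 and 57.2 FPKM in FIT (1.05 ± 0.20, adjusted p = 0.028). CRIM1, a membrane protein that binds BMPs, had 1.03 ± 0.14, adjusted p = 0.0123. The member that fell was IGFBP3, at 2.18, 1.61 and 2.83 FPKM in DP-3 and 21.7, 18.7 and 10.1 FPKM in FIT (-2.79 ± 0.34, adjusted p = 0.0101). Between 2 and 5 members rose over the fits without 1 library, 5 of them without FIT replicate 3 and 2 without DP-3 replicate 1 or 3 or FIT replicate 1.

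The upstream 250 bases of ANKRD1 and CCN2, the YAP/TEAD genes with the largest increases, are given because both held the TEAD element. They are from RefSeq on GRCh38.p14, read 5′ to 3′ on the strand of the gene and ending 1 base before its annotated start, with CATTCC or its reverse complement in capitals. The ANKRD1 window is chr10:90921088-90921337 and the CCN2 window chr6:131951373-131951622, both on the minus strand.
ANKRD1: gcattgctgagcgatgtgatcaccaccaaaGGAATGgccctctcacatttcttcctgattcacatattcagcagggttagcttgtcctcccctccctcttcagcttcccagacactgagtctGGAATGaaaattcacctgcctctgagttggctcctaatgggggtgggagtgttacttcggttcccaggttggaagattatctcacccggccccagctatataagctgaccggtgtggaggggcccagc
CCN2: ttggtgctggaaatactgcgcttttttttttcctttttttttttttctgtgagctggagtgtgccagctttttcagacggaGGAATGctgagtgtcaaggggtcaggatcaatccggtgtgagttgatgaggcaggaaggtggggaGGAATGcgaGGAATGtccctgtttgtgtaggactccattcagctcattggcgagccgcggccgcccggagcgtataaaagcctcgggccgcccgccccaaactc
In ANKRD1 the element began at positions -220 and -128 from the start site, and in CCN2 at -169, -104 and -95. On either strand, 7 of the 19 members of the list with a promoter held CATTCC (36.8%), against 11.9% of the 27305 promoters of the same length. The match is of letters alone, and binding was not measured.

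Chaperones of the cytosol and of mitochondria were among the upregulated genes. Of 14 tested heat shock proteins 6 rose (1.66% of all genes rose) and none fell, with a median of 0.87. For 9 all 3 DP-3 libraries were above all 3 FIT libraries (12.5% of all genes). HSP90AA1, the inducible form of HSP90 that holds kinases and steroid receptors (ENSG00000080824, chr14:102080742-102139699, minus strand), was at 726, 691 and 613 FPKM in DP-3 and 271, 209 and 352 FPKM in FIT (1.42 ± 0.21, adjusted p = 0.0154). HSPA8, the HSC70 gene, was at 583, 584 and 467 FPKM in DP-3 and 144, 187 and 341 FPKM in FIT, where FIT replicate 3 was the highest of its group (1.4 ± 0.31, adjusted p = 0.0376). HSPH1, which recharges HSP70, was at 60.1, 51.1 and 51.9 FPKM in DP-3 and 20, 15 and 32.3 FPKM in FIT (1.41 ± 0.26, adjusted p = 0.0252), and the mitochondrial chaperonin pair HSPD1 and HSPE1 had 1.31 ± 0.18, adjusted p = 0.0136 and 1.29 ± 0.19, adjusted p = 0.0147. HSPA4, another nucleotide exchange factor of HSP70, just reached the 2-fold threshold at 1.0 ± 0.13, adjusted p = 0.0122. The members best known for a sharp response to heat were not called: HSPA1A had 0.43 ± 0.39, adjusted p = 0.523 and DNAJB1 -0.34 ± 0.30, adjusted p = 0.494. STIP1, which hands client proteins from HSP70 to HSP90, also rose (1.27 ± 0.24, adjusted p = 0.0262). These genes have processed pseudogenes or near-identical copies, between which the counting could split reads. Without DP-3 replicate 1 or FIT replicate 1 no heat shock gene was called, and without FIT replicate 3 there were 9.

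The unfolded protein response relieves folding stress in the endoplasmic reticulum. Of its 17 tested genes 3 rose (1.66% of all genes rose) and none fell, with a median of 0.70. HSPA5, the chaperone BiP of that compartment, was at 321, 381 and 374 FPKM in DP-3 and 198, 172 and 219 FPKM in FIT (1.0 ± 0.16, adjusted p = 0.0193). PDIA4, a disulfide isomerase, was at 121, 149.6 and 131 FPKM in DP-3 and 56, 63.1 and 90.7 FPKM in FIT (1.06 ± 0.21, adjusted p = 0.028), and HYOU1, a large chaperone partner of BiP, had 1.05 ± 0.17, adjusted p = 0.0182. All 3 sat just past the 2-fold threshold, although the DP-3 and FIT values of HSPA5 and PDIA4 did not overlap. Without FIT replicate 3 the count was 5, without DP-3 replicate 2 it was 1, and without any of the other 4 libraries it was 0. ATF4 targets, which answer amino acid shortage, had 1 member higher and 1 lower of 32, beside 1.66% and 3.16% of all genes, with a median of 0.12.

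HSPA8 is the upregulated heat shock gene whose upstream window held the core of the heat shock element, GAANNTTC, a motif chosen after the values were seen. The window is chr11:123062137-123062386, minus strand, from RefSeq on GRCh38.p14, with the matches in capitals.
HSPA8: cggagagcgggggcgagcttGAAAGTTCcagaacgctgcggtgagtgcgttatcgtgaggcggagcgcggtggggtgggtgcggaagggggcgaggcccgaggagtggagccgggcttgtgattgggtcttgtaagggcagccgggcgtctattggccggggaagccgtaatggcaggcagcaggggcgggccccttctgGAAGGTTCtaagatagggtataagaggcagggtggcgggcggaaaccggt
The matches began at -230 and -50 from the start site. The motif, which reads the same on both strands, was in 5 of 13 promoters of the list (38.5%) and in 5.85% of all promoters.

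Genes of the NRF2 program, which detoxifies electrophiles and supplies glutathione and thioredoxin, held more upregulated than downregulated members in DP-3. Of 28 tested 8 rose and 1 fell, beside 1.66% and 3.16% of all genes, with a median of 0.67. NQO1, a quinone reductase, was at 46.9, 28.2 and 29.2 FPKM in DP-3 and 7.31, 9.08 and 10.3 FPKM in FIT (2.09 ± 0.24, adjusted p = 0.00825). HMOX1, the heme oxygenase that frees iron from heme, was at 72.5, 49.2 and 53 FPKM in DP-3 and 13.3, 21.8 and 9.18 FPKM in FIT (2.08 ± 0.33, adjusted p = 0.0182), and TXNRD1, thioredoxin reductase, at 25.2, 24.2 and 20.6 FPKM in DP-3 and 10.1, 10.7 and 10.7 FPKM in FIT (1.27 ± 0.13, adjusted p = 0.00686). The groups did not overlap for any of these 3 genes. SLC7A11, the cystine importer, had 1.41 ± 0.32, adjusted p = 0.0399, PIR, a nuclear protein of the cupin fold, 1.47 ± 0.22, adjusted p = 0.0161, ME1, a source of NADPH, 1.1 ± 0.23, adjusted p = 0.0307, OSGIN1, a growth inhibitor, 1.25 ± 0.25, adjusted p = 0.0288, and AKR1C2, a ketosteroid reductase with near-identical copies, 1.26 ± 0.32, adjusted p = 0.0494. AKR1B10, an aldo-keto reductase, moved the other way at 5.99, 4.68 and 5.14 FPKM in DP-3 and 14.4, 27.4 and 23.8 FPKM in FIT (-1.94 ± 0.28, adjusted p = 0.0141), and GCLM, the modifier of glutathione synthesis, missed the 2-fold and p thresholds (0.91 ± 0.26, adjusted p = 0.0636). The calls of NQO1 and TXNRD1 held without any 1 library, that of HMOX1 in 3 of 6 fits, and 2 to 6 members rose over those fits, 2 without DP-3 replicate 1 or 3.

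TXNRD1 held an antioxidant response element core, TGACNNNGC, in its upstream window, chr12:104215529-104215778 on the plus strand (RefSeq, GRCh38.p14), with the match in capitals.
TXNRD1: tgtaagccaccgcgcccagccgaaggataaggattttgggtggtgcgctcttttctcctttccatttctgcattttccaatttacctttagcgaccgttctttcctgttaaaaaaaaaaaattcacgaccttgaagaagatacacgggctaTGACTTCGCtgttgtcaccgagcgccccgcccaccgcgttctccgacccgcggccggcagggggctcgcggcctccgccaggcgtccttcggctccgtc
The match began at -99. The core was found on either strand in 5 of 21 promoters of the list (23.8%) and in 11% of all promoters.

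Of 12 tested genes of iron storage, uptake and export 5 rose and none fell, with a median of 0.76. Of 9 genes of lipid peroxidation and its defence 1 rose (1.66% of all genes rose). HMOX1 and SLC7A11 are counted here as well as among the NRF2 targets. FTL and FTH1, the light and heavy chains of ferritin, the iron store of the cell, were both called. FTL was at 1365, 961 and 1034 FPKM in DP-3 and 519, 404 and 263 FPKM in FIT (1.63 ± 0.26, adjusted p = 0.0187), and FTH1 at 532, 420.4 and 523 FPKM in DP-3 and 237, 257 and 287 FPKM in FIT (1.05 ± 0.18, adjusted p = 0.0206). Neither gene showed overlap between the groups. TFRC, the transferrin receptor that takes up iron, was at 54.1, 44.4 and 38.2 FPKM in DP-3 and 13.7, 21.7 and 16.8 FPKM in FIT (1.5 ± 0.23, adjusted p = 0.0155). SLC39A8, a metal importer, had 1.25 ± 0.29, adjusted p = 0.0415. GPX4, the peroxidase that guards membranes from ferroptosis, had 0.18 ± 0.12, adjusted p = 0.39. Both ferritin genes have many processed pseudogenes, so their own share of the reads is uncertain. Without DP-3 replicate 1 or FIT replicate 1 none of the 12 was called, and without DP-3 replicate 3, FIT replicate 2 and DP-3 replicate 2 the counts were 1, 2 and 4.

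**Figure D4:**
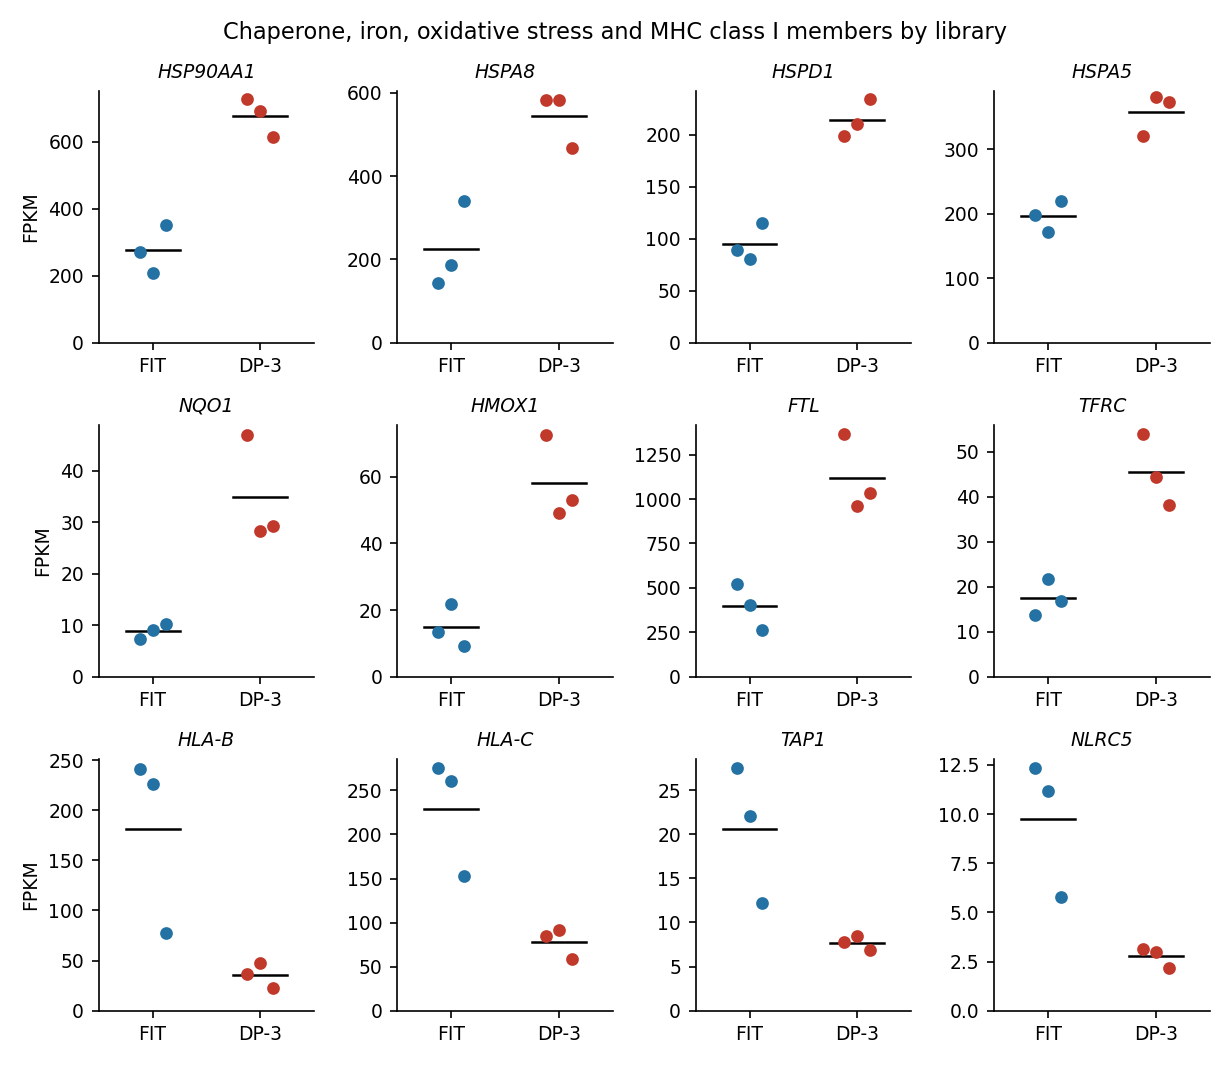
FPKM (y axes, from 0) of 12 genes of chaperone, NRF2, iron and MHC class I lists in the 6 libraries, with 1 point for each library and a line at the mean of each group. The chaperone, NRF2 and iron genes are higher in all 3 DP-3 libraries and HLA-C, TAP1 and NLRC5 in all 3 FIT libraries, with FIT replicate 3 the lowest of FIT for each of the last 3.

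Of 10 tested genes of fatty acid synthesis 3 rose and none fell, with a median of 0.67, beside 1.66% of all genes that rose and 3.16% that fell. The 3 were SCD, the stearoyl-CoA desaturase, at 64, 96.2 and 138 FPKM in DP-3 and 34.9, 32.2 and 10.6 FPKM in FIT (2.08 ± 0.47, adjusted p = 0.0391), FASN, the fatty acid synthase (1.2 ± 0.28, adjusted p = 0.0411), and FADS2, a desaturase of polyunsaturated chains (1.18 ± 0.23, adjusted p = 0.0275). None of the 3 was called without DP-3 replicate 1 or 3 or FIT replicate 1 or 2, and without DP-3 replicate 2 and FIT replicate 3 the counts were 1 and 2. Of 23 tested genes of cholesterol synthesis 1 rose, with a median of 0.66. Among 64 tested cell cycle genes 4 rose and none fell, with a median of 0.52, and for 35 the DP-3 libraries were all above the FIT libraries (12.5% of all genes). HMMR, a spindle protein and hyaluronan receptor, was at 19, 18.3 and 17.1 FPKM in DP-3 and 5.67, 6.78 and 9.41 FPKM in FIT (1.44 ± 0.20, adjusted p = 0.0133), AURKA, a mitotic kinase, had 1.04 ± 0.25, adjusted p = 0.0459, KIF20A, a kinesin of cell division, 1.09 ± 0.22, adjusted p = 0.0306 and RRM2, a subunit of ribonucleotide reductase, 1.04 ± 0.24, adjusted p = 0.0409. The proliferation marker MKI67 had -0.54 ± 0.19, adjusted p = 0.11 and TOP2A, a topoisomerase of dividing cells, 0.58 ± 0.16, adjusted p = 0.0567. Without FIT replicate 3 the count of cell cycle genes was 7, and without DP-3 replicate 1 or FIT replicate 2 it was 0. None of 23 glycolysis genes was a DEG. Of 24 hypoxia genes CA12, a carbonic anhydrase (1.4 ± 0.19, adjusted p = 0.0122), rose, and VEGFA, the vascular growth factor, at 8.16, 8.63 and 7.09 FPKM in DP-3 and 21, 18.2 and 24.5 FPKM in FIT (-1.29 ± 0.15, adjusted p = 0.00791), and DDIT4, an inhibitor of mTOR (-1.19 ± 0.21, adjusted p = 0.0225), fell.

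Among MHC class I genes, whose products display peptides to T cells, the called members were lower in DP-3 than in FIT. Of 16 tested 9 fell and none rose (3.16% of all genes fell), with a median of -1.26. For 13 all 3 DP-3 libraries were below all 3 FIT libraries (21.6% of all genes). HLA-B was at 36.2, 47.7 and 22.7 FPKM in DP-3 and 241, 227 and 77.2 FPKM in FIT, with FIT replicate 3 well under the other FIT libraries (-2.24 ± 0.44, adjusted p = 0.0285). HLA-C (ENSG00000204525, chr6:31268749-31272105, minus strand) was at 84.6, 91.8 and 58.8 FPKM in DP-3 and 275, 260.4 and 153 FPKM in FIT (-1.43 ± 0.26, adjusted p = 0.0234), and HLA-E and HLA-F, non-classical members, had -1.4 ± 0.28, adjusted p = 0.0301 and -2.07 ± 0.35, adjusted p = 0.0199. The helpers of the system fell with them: TAP1, a subunit of the pump that carries peptides into the endoplasmic reticulum, at 7.79, 8.48 and 6.86 FPKM in DP-3 and 27.5, 22 and 12.2 FPKM in FIT (-1.29 ± 0.27, adjusted p = 0.0324), PSMB8 and PSMB9, subunits of the immunoproteasome (-1.24 ± 0.22, adjusted p = 0.0224 and -1.56 ± 0.27, adjusted p = 0.0221), and NLRC5, the transactivator of class I genes, at 3.16, 2.96 and 2.16 FPKM in DP-3 and 12.3, 11.2 and 5.76 FPKM in FIT (-1.7 ± 0.28, adjusted p = 0.0199). B2M, the shared light chain, was at 87.6, 101 and 73.4 FPKM in DP-3 and 135, 109 and 112 FPKM in FIT and missed the threshold (-0.31 ± 0.16, adjusted p = 0.237). HLA genes are near-identical to one another, and the annotated spans of HLA-B and HLA-C overlap on the same strand, so that reads may be split between them. The count followed single libraries: it was 10 without FIT replicate 3, 0 without DP-3 replicate 1 or FIT replicate 1, 1 without DP-3 replicate 3 or FIT replicate 2 and 2 without DP-3 replicate 2.

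TAP1 and HLA-F are the downregulated members whose upstream windows held an interferon-stimulated response element, read as GAAA, any 2 bases and GAAA again on either strand, shown in capitals, and this motif was paired with the list after the values were seen. The windows are chr6:32853705-32853954, minus strand, and chr6:29723184-29723433, plus strand, from RefSeq on GRCh38.p14.
TAP1: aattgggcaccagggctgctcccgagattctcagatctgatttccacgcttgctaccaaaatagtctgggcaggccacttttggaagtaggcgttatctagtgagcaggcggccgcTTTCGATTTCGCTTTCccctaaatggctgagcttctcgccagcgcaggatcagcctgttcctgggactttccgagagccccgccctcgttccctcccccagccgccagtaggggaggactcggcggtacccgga
HLA-F: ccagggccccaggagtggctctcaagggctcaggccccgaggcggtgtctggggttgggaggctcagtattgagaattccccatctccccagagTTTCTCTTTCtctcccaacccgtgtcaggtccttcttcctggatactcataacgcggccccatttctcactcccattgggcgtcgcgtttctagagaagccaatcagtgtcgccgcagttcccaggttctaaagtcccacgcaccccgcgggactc
In TAP1 the 2 matches, at -134 and -128, overlap, and in HLA-F there was 1 at -156. Of the 12 promoters of the list 6 held the element (50.0%), against 3.07% of all promoters. Of 35 promoters of interferon-stimulated genes, 20 held it (57.1%).

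Of 45 tested interferon-stimulated genes 5 fell and 1 rose, beside 3.16% and 1.66% of all genes, with a median of -0.72. UBA7, the activating enzyme of ISG15, was at 1.55, 1.83 and 1.25 FPKM in DP-3 and 11, 8.28 and 4.82 FPKM in FIT (-2.25 ± 0.30, adjusted p = 0.0122). IFI27 (-3.26 ± 0.78, adjusted p = 0.0451), the factors STAT2 (-1.15 ± 0.27, adjusted p = 0.0422) and IRF9 (-1.41 ± 0.30, adjusted p = 0.0343), which together carry interferon signals to the nucleus, and IRF1 (-1.05 ± 0.23, adjusted p = 0.0343) fell. SAMD9, an antiviral protein, was the member that rose, at 5.35, 5.11 and 4.65 FPKM in DP-3 and 2.15, 1.44 and 1.0 FPKM in FIT (1.84 ± 0.26, adjusted p = 0.0138). Classic members were not called: ISG15 had -0.45 ± 0.43, adjusted p = 0.535 and IFIT1 0.67 ± 0.45, adjusted p = 0.377. Without FIT replicate 3 the number that fell was 19, and it was 0 without DP-3 replicate 1 and 1 without each of the other libraries.

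Matrix proteases changed in both directions. Of 15 tested MMPs 4 rose and 2 fell, beside 1.66% and 3.16% of all genes. Beside MMP3 and MMP13, MMP1, the interstitial collagenase, was at 84.3, 95 and 56.3 FPKM in DP-3 and 46.5, 29.1 and 14.8 FPKM in FIT (1.5 ± 0.37, adjusted p = 0.0482) and MMP12, the macrophage elastase, at 0.925, 2.64 and 7.42 FPKM in DP-3 and 0.287, 0.129 and 0 FPKM in FIT, a wide spread on either side (4.73 ± 1.07, adjusted p = 0.0384). MMP19 (-1.56 ± 0.21, adjusted p = 0.0127) and MMP25 (-1.97 ± 0.42, adjusted p = 0.0343) fell. Only MMP3 and MMP13 rose in every fit without 1 library, and without FIT replicate 3 the count that rose was 5. None of the 3 tissue inhibitors of metalloproteinases tested was a DEG. ADAMTS14, which trims the ends of procollagen, was at 3.78, 4.5 and 3.54 FPKM in DP-3 and 11.9, 13.6 and 15 FPKM in FIT (-1.65 ± 0.16, adjusted p = 0.00455), 1 of 3 among 12 tested ADAMTS genes that fell, and 1 to 3 did over the fits without 1 library, fewest without DP-3 replicate 1.

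Of 26 tested collagens 5 fell and none rose, with a median of -0.23, beside 3.16% of all genes that fell and 1.66% that rose. COL1A1, a chain of type I collagen, the main protein of bone (ENSG00000108821, chr17:50184101-50201632, minus strand), was at 3.23, 4.11 and 5.02 FPKM in DP-3 and 21, 19.6 and 20.2 FPKM in FIT (-2.16 ± 0.20, adjusted p = 0.00379). COL5A3, a chain of type V collagen, was at 0.0446, 0.0974 and 0.0505 FPKM in DP-3 and 3.09, 5.32 and 3.02 FPKM in FIT (-5.75 ± 0.43, adjusted p = 0.00219). The others were COL15A1, a basement membrane collagen (-2.35 ± 0.31, adjusted p = 0.0122), COL11A2, of cartilage (-1.87 ± 0.37, adjusted p = 0.029), and COL7A1, of anchoring fibrils (-1.35 ± 0.21, adjusted p = 0.0161). Between 2 and 5 collagens fell over the fits without 1 library, and without FIT replicate 3 another 3 rose. BGN, the proteoglycan biglycan, was at 9.85, 4.02 and 2.4 FPKM in DP-3 and 54, 67.5 and 17.8 FPKM in FIT (-3.0 ± 0.63, adjusted p = 0.033), a call that held only in the fit without FIT replicate 3. LAMA5, a laminin chain of basement membranes, was at 1.43, 1.48 and 2.18 FPKM in DP-3 and 13.5, 15 and 10.5 FPKM in FIT (-2.8 ± 0.25, adjusted p = 0.00379). FN1, fibronectin, had -0.24 ± 0.41, adjusted p = 0.751. Among 23 integrins 3 rose and 1 fell: ITGA10, a collagen receptor of cartilage, was at 9.9, 10.1 and 7.64 FPKM in DP-3 and 49.6, 50.2 and 29.3 FPKM in FIT (-2.1 ± 0.24, adjusted p = 0.00791), whereas ITGA1 (1.41 ± 0.21, adjusted p = 0.0161) and ITGA2 (1.52 ± 0.36, adjusted p = 0.0434), also receptors for collagen, rose. ITGA2 was at 52.4, 23.9 and 24.4 FPKM in DP-3 and 8.64, 15.6 and 13.6 FPKM in FIT and its call was lost in each of the fits without 1 library. The count of integrins that rose was 3 without FIT replicate 3, 1 without DP-3 replicate 2 or FIT replicate 2 and 0 without DP-3 replicate 1 or 3 or FIT replicate 1, while ITGA10 fell in all 6 fits.

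Among keratins, S100 proteins and HOX genes most members were not called, and more of the called members fell than rose. Of 17 tested keratins 5 fell (3.16% of all genes fell), with a median of -1.11. For 11 all DP-3 libraries were below the FIT libraries (21.6% of all genes). KRT8, a keratin of simple epithelia, was at 2.2, 3.16 and 2.98 FPKM in DP-3 and 9.14, 7.5 and 8.3 FPKM in FIT (-1.45 ± 0.18, adjusted p = 0.0101). KRT5 and KRT14, the pair of basal epidermis, were at the floor in DP-3, where they were at least 34.5-fold and 64.3-fold lower, with KRT14 at 10.4, 1.67 and 0.115 FPKM in FIT, highest in replicate 1. KRT5 was called in the 3 fits without 1 library in which it was tested, and KRT14 and KRT6A in none of their 3. KRT15 (-1.93 ± 0.46, adjusted p = 0.0451) and KRT6A, at the floor in DP-3, fell too. Of 11 tested S100 genes 4 fell, among them S100A4, a calcium-binding protein of motile cells, at 43.7, 29.7 and 33.3 FPKM in DP-3 and 149, 83.9 and 91.8 FPKM in FIT (-1.47 ± 0.24, adjusted p = 0.0187), and 0 to 2 did over the fits without 1 library, 0 of them without DP-3 replicate 1 or 3 or FIT replicate 1. Of 28 tested HOX genes, which give cells their position along the body axes, 5 fell and 1 rose. HOXD10 was listed at 0 in DP-3 and was at 0.759, 1.22 and 0.807 FPKM in FIT, at least 16.0-fold lower in DP-3, and HOXA13 rose (1.52 ± 0.32, adjusted p = 0.0339). Over the fits without 1 library 1 or 2 keratins and 0 to 2 HOX genes fell, in both cases fewest without FIT replicate 1.

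Growth factor and inflammatory genes gave a mixed picture. Of 9 tested genes of IGF binding proteins 3 fell and 1 rose, beside 3.16% and 1.66% of all genes. Beside IGFBP5 and IGFBP3, IGFBP6 was at 68.3, 64.8 and 35.6 FPKM in DP-3 and 224, 195 and 123 FPKM in FIT (-1.57 ± 0.29, adjusted p = 0.0243), and IGFBP7, which binds insulin-like growth factors weakly, was the one that rose, at 91.8, 64.2 and 41.9 FPKM in DP-3 and 13.1, 19.7 and 37.2 FPKM in FIT (1.62 ± 0.41, adjusted p = 0.0493). The calls of IGFBP6 and IGFBP7 held only without FIT replicate 3, and over the fits without 1 library 1 to 3 of the family fell, fewest without DP-3 replicate 1, and 0 to 2 rose, 2 of them without FIT replicate 3. LRIG1, a brake on EGF receptors, was at 4.98, 5.56 and 5.26 FPKM in DP-3 and 23, 20.9 and 22.9 FPKM in FIT, with little spread in either group (-1.95 ± 0.12, adjusted p = 0.00113), and the EGF receptor ligand EREG had -2.33 ± 0.40, adjusted p = 0.0219. The call of LRIG1 held in all 6 fits without 1 library, while that of EREG was lost in 5. Of 22 tested NF-kB targets and inflammatory mediators 4 rose and none fell, including CXCL3 (2.22 ± 0.33, adjusted p = 0.0154), a chemokine for neutrophils, and TNFAIP3 (1.14 ± 0.25, adjusted p = 0.0358), a feedback inhibitor of NF-kB. No member of that list was called without DP-3 replicate 1 or 3 or FIT replicate 1. The call of CXCL3 was lost in 4 of the 6 fits without 1 library and that of TNFAIP3 in each. Of 20 TNF superfamily genes 4 fell, including TNFRSF11B, the decoy receptor osteoprotegerin that restrains osteoclasts, at 0.42, 0.642 and 1.5 FPKM in DP-3 and 9.48, 6.1 and 2.2 FPKM in FIT (-2.64 ± 0.64, adjusted p = 0.0459). In that family 5 members fell without FIT replicate 3, 2 without FIT replicate 2 and none without each of the other libraries. TDO2, which opens the tryptophan ring, was at 3.04, 4.22 and 7.61 FPKM in DP-3 and 0.0684, 0.116 and 0.289 FPKM in FIT (5.19 ± 0.62, adjusted p = 0.00941) and KYNU, a later enzyme of the same route, had 1.2 ± 0.27, adjusted p = 0.0367. The call of TDO2 held in all 6 fits without 1 library, while that of KYNU was lost in 5.

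Of 30 tested immediate early genes, which respond within minutes to serum, stress or handling, 5 fell and 2 rose, beside 3.16% and 1.66% of all genes. FOSB (-2.66 ± 0.36, adjusted p = 0.0122), FOS (-1.37 ± 0.31, adjusted p = 0.0376), DUSP1 (-1.61 ± 0.38, adjusted p = 0.0446), JUND (-1.07 ± 0.19, adjusted p = 0.0235) and KLF4 (-1.21 ± 0.25, adjusted p = 0.0334) fell, and FOSL1, a longer-lived FOS relative, was at 131, 170.5 and 201 FPKM in DP-3 and 50, 66.7 and 39.4 FPKM in FIT and rose (1.81 ± 0.27, adjusted p = 0.0147) together with KLF2 (1.15 ± 0.18, adjusted p = 0.0164). Without FIT replicate 3 the list had 7 members lower and 3 higher, and without DP-3 replicate 1 or FIT replicate 1 none was lower. None of its 25 promoters held the AP-1 element TGANTCA on either strand, against 6.60% of all promoters.

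The core machinery of the cell held few DEGs or none. Not a single DEG stood among 83 tested ribosomal protein genes (median 0.16), 78 genes of oxidative phosphorylation (median 0.14) or 13 genes of the mitochondrial genome (median 0.18). The mitochondrial genes summed to 34861, 36634 and 81071 FPKM in DP-3 and 49183, 47646 and 57600 FPKM in FIT, so DP-3 replicate 3 stood apart. Over the fits without 1 library their median was -0.31 to 0.44, and without DP-3 replicate 3 there was 1 downregulated member. None of 43 clustered replication histone genes was a DEG either, but their median was -0.86 and 4 were above 0. The libraries were made from polyadenylated RNA, so histone RNA without a poly(A) tail is not measured by these values. For 12 of the 43 all DP-3 libraries were lower (21.6% of all genes), and 9 were DEGs lower than in D-3 (7.15% of all genes). On simulated counts 10 of 63 genes changed 2-fold were recovered, so a list without a DEG can still hold changes. The 2 DEGs among 37 proteasome genes were PSMB8 and PSMB9, which belong to the MHC class I list as well. Zinc finger genes had 6 higher and 5 lower of 438, and solute carriers 5 higher and 9 lower of 231, beside 1.66% and 3.16% of all genes. Among 301 tested genes named LINC, for long intergenic noncoding RNAs, 17 fell and 4 rose.

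Markers of other cell types were read as levels of human genes, and their part in the results above was not tested. Reads of mouse cells counted on human genes in FIT cannot be told apart from human ones here. In bulk RNA, fewer cells of a type and less RNA per cell cannot be told apart. Of 10 keratinocyte markers 5 were tested and 3 fell (KRT14, KRT5 and SFN), beside 3.16% of all genes that fell. The sum of that list was 17.3 to 23.7 FPKM in DP-3 and 27.7 to 57.6 FPKM in FIT, while KRT1 was listed at 0 in all 6 libraries. Of 10 endothelial markers 6 were tested and 2 fell, again beside 3.16% of all genes. They were PECAM1 (-1.12 ± 0.19, adjusted p = 0.0198) and CDH5 (-3.09 ± 0.52, adjusted p = 0.0198), and the sums of the list were 28.2 to 31.6 and 34.6 to 47.7 FPKM. The 1 tested endothelial marker with a log2 fold change above 0 was at 2.46 and was not called. Of 12 skeletal muscle markers 1 was tested and none was called, with sums of 0.0327 to 0.2 FPKM in DP-3 and 1.05 to 5.69 FPKM in FIT, and the 9 lymphocyte markers, again with 1 tested, had sums of 0.197 to 0.415 and 0.154 to 3.09 FPKM. The 12 macrophage markers, 3 of them tested, had sums of 51.6 to 120 and 24.7 to 61.7 FPKM without a DEG, although SPI1, the myeloid transcription factor outside that list, was at least 111-fold lower in DP-3. SPI1 was at 1.29, 1.78 and 21 FPKM in FIT, highest in replicate 3, and neither its call nor that of CDH5 held in any fit without 1 library. Neither the 9 fibroblast markers nor the 4 pericyte markers tested held a DEG, and no neutrophil or red blood cell marker passed the filter. Among 10 adipocyte markers FABP4 was at 8.53, 0.709 and 1.5 FPKM in DP-3 and listed at 0 in FIT, at least 20.1-fold higher, while ADIPOQ and LEP were listed at 0 in all 6 libraries.

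By the pathway names that the deposited table attaches to genes, 266 pathways had at least 20 tested members. They were ranked by the calls used above, of which 1.66% of all genes were higher and 3.16% lower, and counts without 1 library are not given for them. The highest shares of upregulated members were in ferroptosis, with 6 of 31 (HMOX1, FTL, FTH1, TFRC, SLC7A11 and SLC39A8), renin secretion, with 7 of 44, and glutathione metabolism, with 6 of 41. The 6 ferroptosis genes were all counted above among the genes of iron and lipid peroxidation, so they are not a separate result. In renin secretion the members included ITPR1 (1.53 ± 0.18, adjusted p = 0.00943) and ITPR2 (1.92 ± 0.25, adjusted p = 0.0122), calcium release channels that many other pathways list as well. The highest shares of downregulated members were in protein digestion and absorption, with 7 of 44, viral myocarditis, with 5 of 32, cell adhesion molecules, with 10 of 65, and antigen processing and presentation, with 6 of 41. In the last of these 4 members rose, the heat shock genes HSP90AA1, HSPA8, HSPA4 and HSPA5, while the MHC genes fell. Osteoclast differentiation had 11 of 92 lower, and the IL-17 pathway held 8 higher and 7 lower of 64.

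DP-3 was also set against D-3, the same line in Matrigel without printing, in a fit that shares its 3 DP-3 libraries with the comparison above, so that the results of both are only given side by side. Of 20682 genes tested, 1887 were DEGs against D-3 (9.12%), with 409 higher (1.98%) and 1478 lower (7.15%) in DP-3. ID3 had a log2 fold change of 3.78 against FIT and 0.83 (adjusted p = 0.0549) against D-3, and ANKRD1 4.37 and -0.21 (adjusted p = 0.72). DKK1 had 3.78 and 1.57 (adjusted p = 0.0118), and CCN2 1.70 and 2.39 (adjusted p = 0.00416). MMP3 had 6.0 and -1.13 (adjusted p = 0.0247), and MMP13 4.21 and 1.78 (adjusted p = 0.0279). Thus MMP3 was the highest in D-3 and the lowest in FIT of these 3 groups. Of the heat shock list 6 members rose against FIT and 7 against D-3, HSP90AA1 having 1.42 and 1.2 (adjusted p = 0.0124). The NRF2 list had 8 higher and 1 lower against FIT, and none higher and 3 lower against D-3, where SLC7A11 had -1.25 (adjusted p = 0.00793) and HMOX1 -0.95 (adjusted p = 0.0527). Against D-3, FTL had -0.75 (adjusted p = 0.0362), FTH1 -0.93 (adjusted p = 0.0185) and TFRC 0.97 (adjusted p = 0.0181), each short of 2-fold. HLA-B had -2.24 against FIT and -2.04 (adjusted p = 0.00646) against D-3, HLA-C -1.43 and -1.16 (adjusted p = 0.0106), and 9 and 5 members of the MHC class I list fell. COL1A1 had -2.16 and 0.74 (adjusted p = 0.0445), VEGFA -1.29 and -1.51 (adjusted p = 0.00316). Of 32 ATF4 targets 1 fell against FIT and 18 against D-3.

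**Figure D5:**
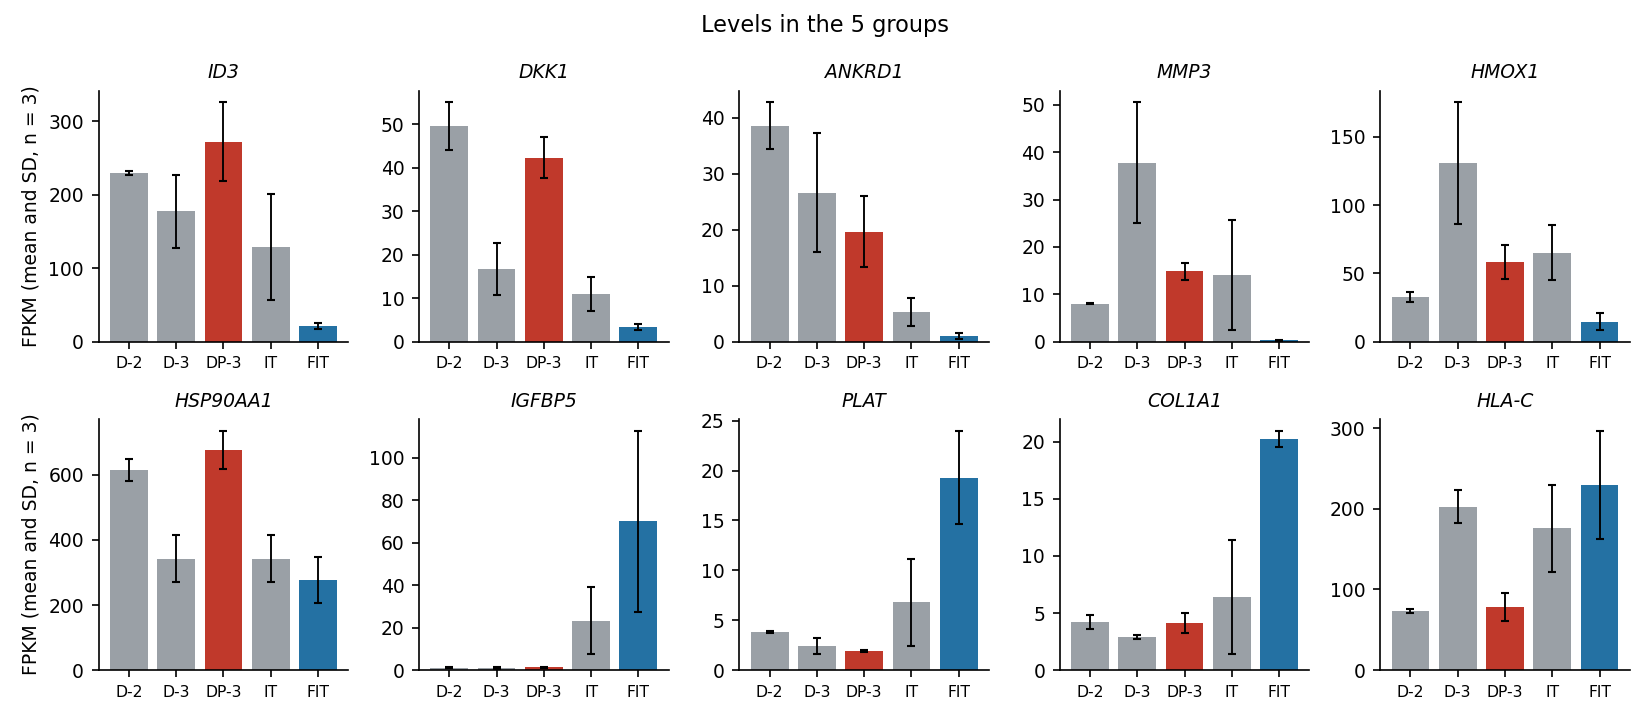
Mean FPKM (y axes, from 0, error bars ± SD, n = 3) of 10 genes in D-2, D-3, DP-3, IT and FIT, with DP-3 in red and FIT in blue. The mean of ID3 was 21.4 FPKM in FIT, 129 in IT, 272 in DP-3, 178 in D-3 and 229.7 in D-2, and that of IGFBP5 was at most 1.26 in the 3 cultures, 23.3 in IT and 70.1 in FIT.

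Levels in the remaining groups are given with no test. The mean of DKK1 was 3.38 ± 0.748 FPKM (SD, n = 3) in FIT, 10.9 ± 3.9 in IT, 42.3 ± 4.66 in DP-3, 16.7 ± 6.02 in D-3 and 49.5 ± 5.51 in D-2. DP-3 and D-2 differed by about their spread, as did IT and D-3, and FIT was the lowest. HSP90AA1, in the same order of groups, was at 277 ± 71.8, 342 ± 71.3, 677 ± 57.8, 343 ± 73.3 and 616 ± 33.5 FPKM. Here DP-3 and D-2 lay above D-3, IT and FIT, whose means were within their spread. HLA-C was at 229 ± 67.1, 176 ± 54, 78.4 ± 17.3, 203 ± 20.3 and 73.5 ± 2.6 FPKM, so that DP-3 and D-2 were the low groups and the means of the other 3 lay within their spread. COL1A1 had means of 20.3 ± 0.693, 6.38 ± 4.98, 4.12 ± 0.892, 2.88 ± 0.167 and 4.19 ± 0.606 FPKM, and PLAT of 19.3 ± 4.67, 6.79 ± 4.34, 1.91 ± 0.137, 2.4 ± 0.78 and 3.83 ± 0.118 FPKM. For both of these genes FIT stood above the other groups by more than its spread.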

How the data were processed

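The 6 libraries of DP-3 at day 14 and FIT were compared, with D-3 in a second comparison. Poly(A) RNA was read from stranded libraries. Per the study's methods and the submitters' processing notes, the authors used cutadapt 1.9, HISAT2 2.0.4 and StringTie 1.3.4d. The strand setting of the counting and the treatment of mouse reads are not given in the sources used here. The authors deposited an estimated count and an FPKM value per gene and library. One read pair was taken as about 4 estimated counts. Of the counts above 0 and up to 40, 35.0% were multiples of 4, against 25% expected, so this factor is an approximation. Columns of the authors' own comparisons, fold changes and p-values, were not used.

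Genes with at least 0.1 FPKM in at least 3 of 6 libraries were tested on rounded estimated counts with edgeR 4.0.16 (TMM, quasi-likelihood test, R 4.3.3) and Benjamini-Hochberg adjustment. The standard error is the absolute log2 fold change over the square root of F, and DEGs follow the thresholds of the study. On simulated counts for DP-3 against FIT over the same 20039 genes, 10 of 63 genes changed 2-fold were recovered, 41 of 68 changed 4-fold and 58 of 69 changed 8-fold, with 7 false calls. No library duplicated another.

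Members of 45 lists (1005 symbols) and 36 families were counted with no set test, and these members and lists were chosen with earlier results of these data known. Genes were named by rule: the 10 largest changes in each direction among genes above 0 FPKM in all 6 libraries, at a mean of 5 FPKM in either group and without overlap, key genes of the lists, up to 4 called members in each direction of a list, and up to 4 of a pathway. Promoter windows of 250 bases were to be shown for the 8 largest changes in the 4 lists with the highest share called. Of these 1 held its motif, and windows of other called members that held a match were added after the values were seen. Alternatives were DESeq2 1.42.0, its size factors (RLE), other filters, limma 3.58.1 on log2 FPKM with pseudocounts of 0.01, 0.1 and 1, counts divided by 4, all 18 libraries in 1 fit, a replicate block and leaving out each library. Some members of the lists are not reported here by name.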

Additional observations from a re-analysis of the deposited data

How the results depend on the processing

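Every named gene that was called kept its direction in each alternative in which it was tested. The number of DEGs between DP-3 and FIT was 965, with DESeq2 it was 1894 (580 higher and 1314 lower), with all 18 libraries in 1 fit 1619 (543 and 1076), with limma and a pseudocount of 1 it was 438 (115 and 323), and over the fits without 1 library 90 to 1438, lowest without DP-3 replicate 1 and highest without FIT replicate 3. It stayed within 1.5 times with RLE (965), counts divided by 4 (1262), no filter (1263), a filter of 1 FPKM (804) and limma with pseudocounts of 0.1 (1056, 228 higher and 828 lower) and 0.01 (838, 183 and 655). The share of DEGs that were higher was 34.4%, and 21.6% with limma and a pseudocount of 0.1. Replicate numbers did not pair the libraries (correlations of deviations 0.029, 0.014 and 0.042), and a replicate block left 164 DEGs (68 higher and 96 lower), with fewer residual degrees of freedom by its construction. Against D-3 the number was 1887, with a filter of 1 FPKM 1242, with limma and a pseudocount of 1 it was 769, with the block 1019, and without 1 library 329 to 2176. Of the 218 named genes that were called, the call was lost for 3 with DESeq2, 1 with RLE, 8 in the fit of 18 libraries, 56 to 112 with limma, 158 with the block and 15 to 172 without 1 library. FIT replicate 3, with 23721666 counts, limits what can be seen for genes under a CPM of 0.506 there. Causes of these shifts were not tested.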

Other observations

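Some DEGs not described above, chosen after their values were seen, are given as values. PER1, a gene of the circadian clock, was at 1.15, 1.3 and 1.91 FPKM in DP-3 and 10.7, 8.1 and 4.12 FPKM in FIT (-2.25 ± 0.37, adjusted p = 0.0187). KLF9, a zinc finger transcription factor, was at 4.31, 5.25 and 5.31 FPKM in DP-3 and 28.2, 23.1 and 13.5 FPKM in FIT (-1.99 ± 0.27, adjusted p = 0.0122). TXNIP, a thioredoxin-binding protein that follows glucose supply, had -1.66 ± 0.24, adjusted p = 0.0141, and SAT1, which breaks down polyamines, -1.98 ± 0.21, adjusted p = 0.00695. NEAT1, a nuclear noncoding RNA that builds paraspeckles, had -1.94 ± 0.24, adjusted p = 0.0101. CD24, a surface glycoprotein, was at 4.36, 6.73 and 3.59 FPKM in DP-3 and 57.8, 35.6 and 19.2 FPKM in FIT (-2.81 ± 0.40, adjusted p = 0.0137), and as for KLF9 and PER1 FIT replicate 3 was the lowest of its group. ATP6V0D2, a proton pump subunit known from osteoclasts, was at 2.32, 2.51 and 1.76 FPKM in DP-3 and 0.41, 0.361 and 0.269 FPKM in FIT (2.76 ± 0.32, adjusted p = 0.00791), and TLR4, a receptor for bacterial products, had 1.41 ± 0.16, adjusted p = 0.00791. BMF, a promoter of cell death, fell with -2.62 ± 0.40, adjusted p = 0.0162. Adjusted p is from edgeR's quasi-likelihood test.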
